A study of Mus musculus with 10 samples.

Results

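Genes of cholesterol and fatty acid metabolism were examined in skeletal stem cells of the mouse. The 32 genes were taken by symbol from the 15078 genes of the deposited table, and all 32 were found. They comprise 3 regulators of sterol synthesis, 8 enzymes of sterol synthesis, 7 enzymes of fatty acid synthesis, 7 genes of lipid storage, lipolysis and sterol efflux, and 7 genes of mitochondrial fatty acid oxidation (β-oxidation).

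RNA sequencing had been done on 10 libraries of cells that were sorted by flow cytometry as CD45-Ter119-CD31-CD51+CD200+, a gate that leaves out blood and endothelial cells. Graft BM-MSCs (n = 4) were mesenchymal stem cells from the marrow of femurs of transgenic Postn Cre-ER;tdTomato mice that had been placed under the skin of wild-type hosts. They were sorted 5 months after transplantation and were also Tomato+, since tamoxifen given to the host switches the red protein on in graft cells that use Postn and in their descendants. BM-MSCs (n = 3, named 1, 2+4 and 3) came from the marrow and P-SSCs (n = 3, named 1, 2+5 and 4) from the periosteum of wild-type mice. Their labels name them host at steady state with no treatment, and do not say whether these mice carried a graft. The Postn promoter is also used by osteoblasts and fibroblasts, so the tracer marks no single cell type. The 6 steady-state libraries are a re-analysis of libraries from another series. RNA came from small numbers of sorted cells and, by the methods, from distinct mice in each replicate, with the RNA of a pair of mice combined in some. Joined replicate numbers are read here as such pairs. The p-values measure the spread between these libraries. The design asks how graft marrow cells of periosteal origin compare with their counterparts in marrow and periosteum at steady state.

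As background, animal cells make cholesterol from acetyl-CoA through mevalonate, isoprenoids, squalene and lanosterol. The transcription factors SREBP2 and SREBP1, encoded by Srebf2 and Srebf1, switch on the enzymes of the sterol and fatty acid routes when membrane sterol is low, and INSIG proteins hold them back in the endoplasmic reticulum. Fatty acids are built from malonyl-CoA in the cytosol, stored as triglyceride in lipid droplets, released by lipases, and burnt in mitochondria. In marrow, stromal cells lie close to the adipocyte lineage, and marrow adipocytes store and release fatty acids.

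Values are read counts scaled by the size factor of each library, and 1 read was worth between 0.565 and 1.27. Libraries held between 15415421 and 25223295 reads, so that 3 reads, taken as the smallest detectable amount, were between 0.119 and 0.195 ppm of the reads (counting error only). Libraries stood apart in 2 ways that touch the results below. Genes with over 65% GC were high against genes with 50 to 60% GC in the 4 graft libraries and in P-SSC 4 (difference between 1.52 and 2.80 on the log2 scale) and low in the other 5 libraries (between -1.81 and -1.51). All graft libraries thus shared this GC pattern with P-SSC 4, and all BM-MSC libraries had the other, so that only the P-SSCs showed both. Libraries of the same pattern are called a GC batch below. The name rests on these values alone, since no label names a batch. A fit with this batch as a covariate therefore sets the graft against P-SSC 4 alone, and against BM-MSCs only by way of the P-SSC libraries. The graft libraries also listed more genes at 0, between 22.6% and 38.3% of the table against 11.5% to 19.0% at steady state. The labelled cell types were visible in their defining markers. The summed value of 6 BM-MSC markers (Cxcl12, Lepr, Kitl, Vcam1, Ebf3 and Foxc1) lay between 638631 and 817643 in graft BM-MSCs and between 5512 and 11303 in P-SSCs, and that of 4 periosteal markers (Postn, Pi16, Fmod and Thbs4) lay between 202674 and 348991 in P-SSCs and between 332 and 2150 in graft BM-MSCs. Postn itself was listed at 0 in 3 of the 4 graft libraries. Markers of cells that the gate should remove were also present, with a neutrophil sum of up to 98079 in graft BM-MSC 3 and 73654 in BM-MSC 3. Red cell markers summed to between 58706 and 205924 in BM-MSCs, 1483 and 27755 in graft BM-MSCs and 202 and 1407 in P-SSCs, and their part in the results was not tested.

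Zeros in the graft libraries reached the lipid genes as well. Graft BM-MSC 2 listed 6 of the 32 genes at 0 (Insig1, Idi1, Fdft1, Cyp51, Elovl5 and Dgat2) and graft BM-MSC 3 another set of 6 (Fdps, Lss, Cyp51, Elovl6, Lipe and Mgll), while graft BM-MSC 4 listed Sqle and Lss and graft BM-MSC 1 only Lss. At steady state a single zero was found, for Idi1 in BM-MSC 2+4. Among the 9546 genes whose mean value reached 100 the share at 0 was 17.5% in graft BM-MSC 2 and 9.55% in graft BM-MSC 3, beside 18.8% of the lipid genes in each. A zero is therefore described as listed at 0, and each library is given.

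**Figure D1:**
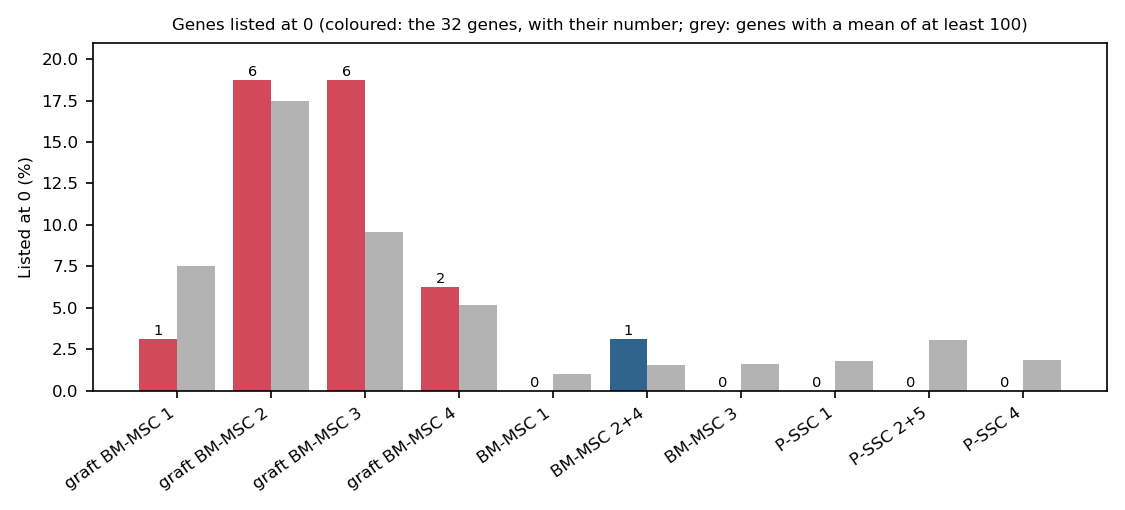
Share of genes listed at 0 in each library, in percent, for the 32 lipid genes (coloured bars with the number of genes above) and for the 9546 genes whose mean value reached 100 (grey bars). The lipid genes had 6 zeros in each of graft BM-MSC 2 and 3, and 1 zero in all 6 steady-state libraries together.

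The 3 groups differed most between periosteum and graft. The summed value of the 32 genes averaged 59996 ± 10410 in P-SSCs (SD, n = 3). It averaged 29195 ± 558 in BM-MSCs (SD, n = 3) and 22229 ± 6036 in graft BM-MSCs (SD, n = 4). The mean of a gene was highest in P-SSCs for 23 of the 32 genes and lowest in graft BM-MSCs for 21. The order P-SSC, BM-MSC, graft BM-MSC was followed by 19 genes. The share of all genes with these orders was not counted. In the tests below, the graft median of all genes was itself -0.47 against P-SSCs and -0.53 against BM-MSCs, a level that depended on the scaling. The ratio between P-SSCs and graft BM-MSCs was largest for fatty acid synthesis, whose sum was 6.38-fold higher in P-SSCs, followed by sterol synthesis at 4.17-fold, the sterol regulators at 2.47-fold, β-oxidation at 1.83-fold and storage, lipolysis and efflux at 1.60-fold. Against BM-MSCs, P-SSCs were 3.65-fold higher in fatty acid synthesis and 1.31-fold higher in β-oxidation. In bulk RNA, fewer cells of a type and less RNA per cell cannot be told apart.

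**Figure D2:**
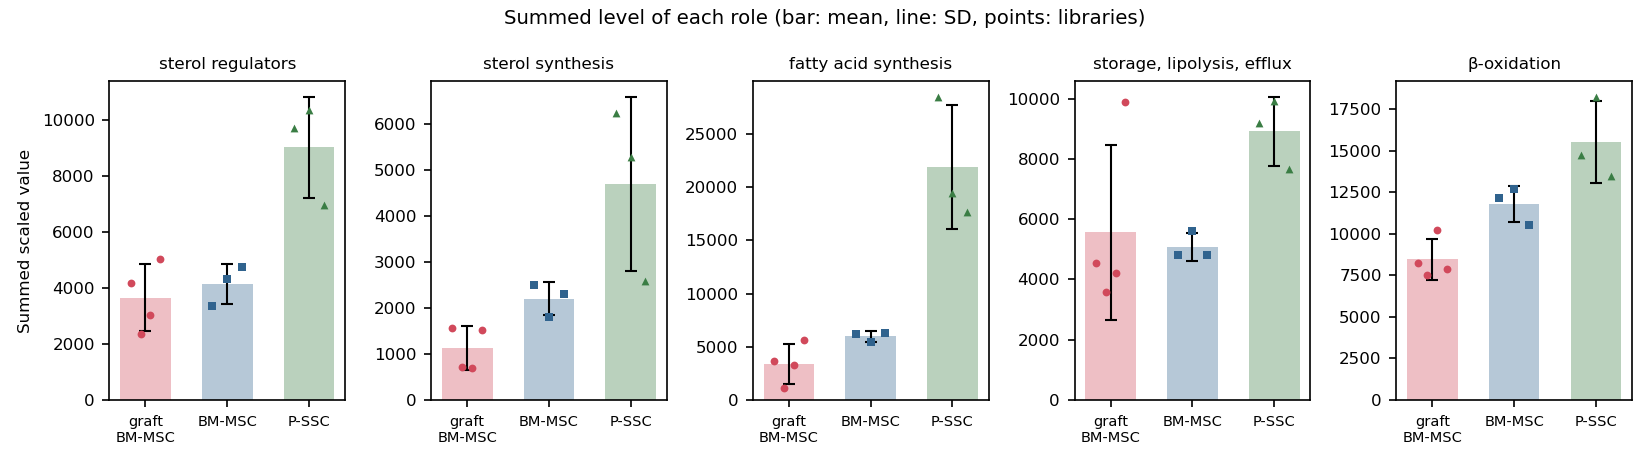
Summed size-factor scaled value of the genes of each role (vertical axes, from 0) in graft BM-MSCs (red), BM-MSCs (blue) and P-SSCs (green), with points for libraries, bars for means and lines for SD. Fatty acid synthesis genes summed to between 17674 and 28499 in P-SSCs and to at most 6308 in any marrow library.

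Differences were tested for all genes whose mean value reached 10 on log2(value + 1), and all 32 genes passed this filter. This scale understates the change of genes that are low in all libraries. Where single libraries were listed at 0, it gave larger changes than the ratio of means. For Cyp51 in graft BM-MSCs against P-SSCs it was -5.10 with a 3.37-fold lower mean, and for Elovl5 -3.20 with a 2.39-fold lower mean. In graft BM-MSCs against P-SSCs, 11 of the 32 genes were lower at an adjusted p under 0.05 and 0 were higher. Over all 13644 genes tested, 18.1% were called in this comparison, 12.0% as lower and 6.08% as higher. The groups did not overlap for 16 of the 32 genes, all lower in the graft, where 26.6% of all genes did not overlap and 18.5% did so as lower. The median log2 change of the 32 genes was -1.91, and that of all genes tested was -0.47. The level of that general shift depended on the scaling, from -0.61 to 0.28 over the alternatives, and the median of the lipid genes stayed between 1.03 and 1.74 below it (differences of -1.03 and -1.74). The count was lower with other tests, namely 7 genes with edgeR (11.2% of all genes called) and 5 when only the libraries of both groups were fitted (12.4%), and it was 11 with DESeq2 (21.3%). It was 1 with the GC batch as a covariate (7.92%), 3 after a loess correction for GC content (18.7%, 2 lower and 1 higher) and 0 with the replicate number as a block. At an unadjusted p under 0.05, 19 of the 32 passed, where 32.8% of all genes did.

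In graft BM-MSCs against BM-MSCs, 1 of the 32 genes was called, as lower, where 7.67% of all genes were called and 5.06% were called as lower. The values of 10 genes did not overlap, all lower in the graft, while 25.0% of all genes did not overlap and 14.7% did so as lower. At an unadjusted p under 0.05, 10 of the 32 passed, where 25.5% of all genes did. Neither edgeR (2.32% of all genes called) nor the fit with the GC batch as a covariate (0.293%) called any of the 32, and DESeq2 called 4 (14.3%). The median log2 change was -0.87, and that of all genes was -0.53. In P-SSCs against BM-MSCs limma called 0 of 32 genes, where 9.15% of all genes were called and 4.57% were called as higher. The log2 change was positive for 27 of the 32, with a median of 0.78 where that of all genes was 0.0022. The values of 15 genes did not overlap, all of them higher in P-SSCs (30.9% of all genes did not overlap, and 15.1% did so as higher). Srebf1, Srebf2 and Acadvl, 3 of the 32, had an unadjusted p under 0.05, as did 18.7% of all genes, while edgeR called 0 (4.54% of all genes) and DESeq2 called 2 (11.1%). Srebf1 and Srebf2 were the 2 genes called by DESeq2, with the GC batch as a covariate (8.83%) and without P-SSC 4 (8.82%). The spread that enters this test is shared with the scattered graft libraries. When only the 6 steady-state libraries were fitted, 8 genes were called, all higher in P-SSCs (Acly, Elovl5, Fasn, Mgll, Scd2, Sqle, Srebf1 and Srebf2), where 13.6% of all genes were called. The 3 comparisons share libraries, so they are not independent of each other.

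**Figure D3:**
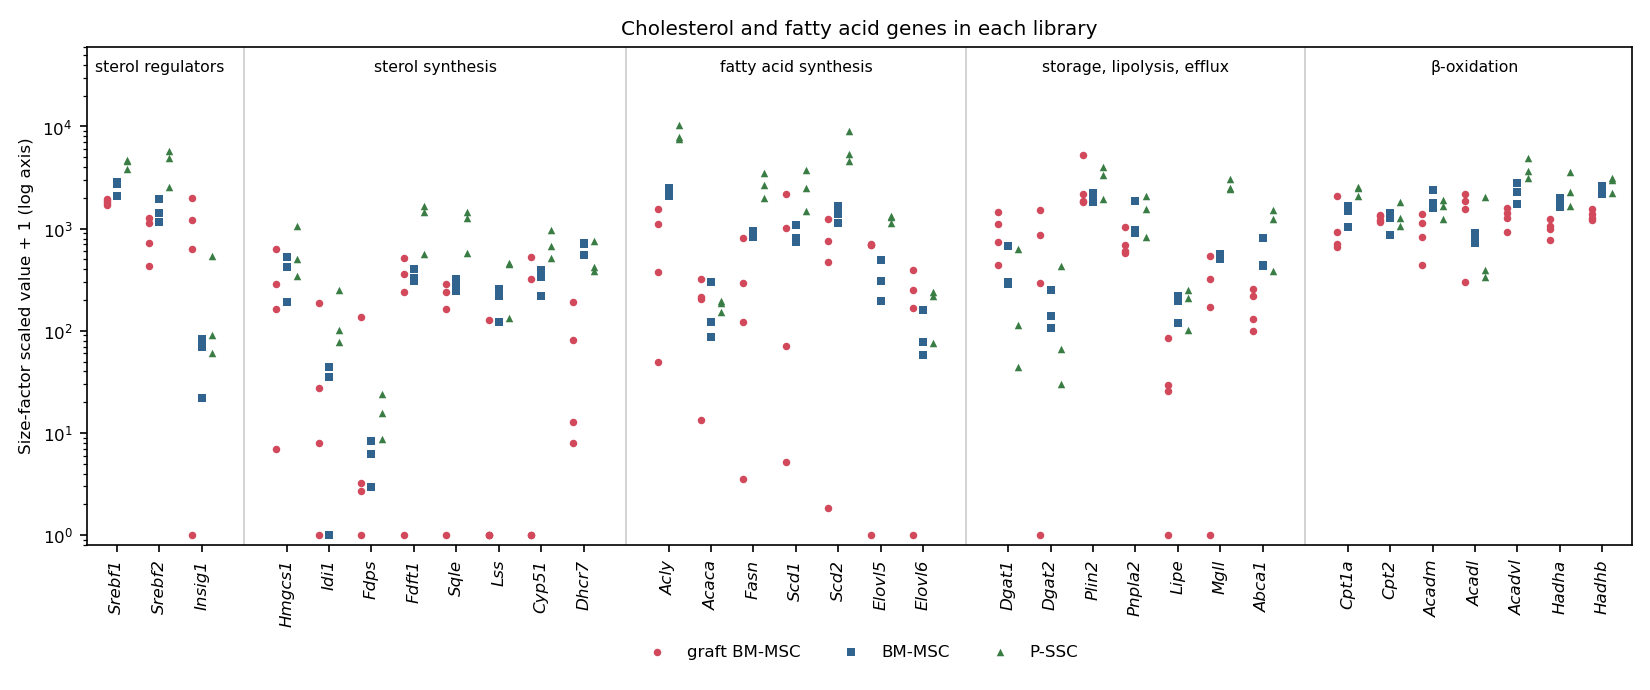
Size-factor scaled value + 1 on a log axis for each of the 32 genes in graft BM-MSCs (red circles), BM-MSCs (blue squares) and P-SSCs (green triangles), 1 point per library. Points at 1 are genes listed at 0, of which 15 lie in graft libraries and 1 in a BM-MSC library.

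**Figure D4:**
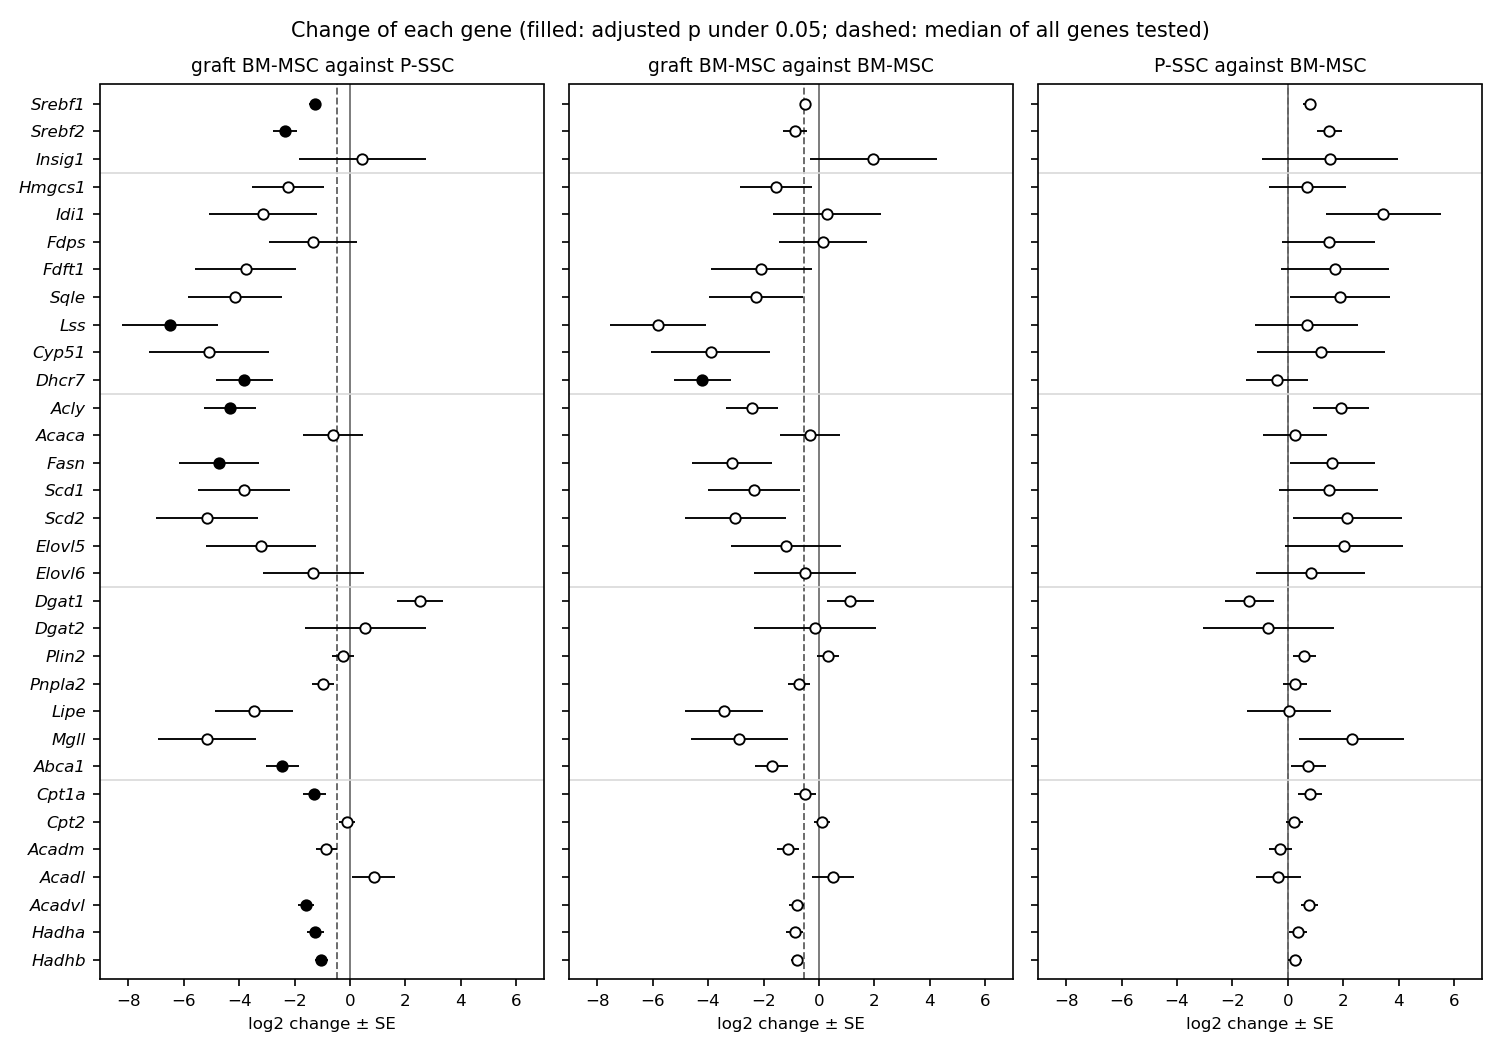
Log2 change of each gene with its standard error in the 3 comparisons, with filled points for an adjusted p under 0.05 and a dashed line for the median of all genes tested. The left panel holds 11 filled points, all below 0, the middle panel 1 and the right panel 0.

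Of the regulators of sterol synthesis, Srebf1 and Srebf2 fell in graft BM-MSCs against P-SSCs. Srebf1 (chr11:60199089-60222581, minus strand, GRCm38) encodes SREBP1, which drives mainly fatty acid genes. Its value was 1858, 1938, 1687 and 1795 in graft BM-MSC 1 to 4, 2092, 2884 and 2743 in BM-MSC 1, 2+4 and 3, and 4723, 4592 and 3859.9 in P-SSC 1, 2+5 and 4. The 3 groups did not overlap, with the graft lowest. Srebf1 fell by 1.27 on the log2 scale in graft BM-MSCs against P-SSCs (SE 0.20, adjusted p = 0.0016), a 2.41-fold lower mean. Its log2 change was -0.49 (SE 0.20) against BM-MSCs, which missed the threshold with an adjusted p of 0.166, and P-SSCs were 0.78 above BM-MSCs (SE 0.22, adjusted p = 0.0506). Without P-SSC 4, that is for P-SSC 1 and 2+5 against the BM-MSCs, the latter difference was 0.87 (adjusted p = 0.0285). Srebf1 was the 1 gene of the 32 that was still called with the GC batch as a covariate, that is against P-SSC 4 (log2 change -1.09, adjusted p = 0.0289), but it was not called after a loess correction for GC content (log2 change -0.45, adjusted p = 0.481), where 18.7% of all genes were called.

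Srebf2 encodes SREBP2, the main driver of the sterol enzymes, and hosts the microRNA gene Mir33, whose reads could count towards it. Its value was 1132, 426, 715 and 1268 in graft BM-MSC 1 to 4, 1168, 1424 and 1949 in BM-MSC 1, 2+4 and 3, and 4918, 5718 and 2563 in P-SSC 1, 2+5 and 4. Every P-SSC library was above every marrow library, and graft BM-MSC 4 was above BM-MSC 1. Srebf2 fell by 2.35 on the log2 scale against P-SSCs (SE 0.43, adjusted p = 0.0035), a 4.97-fold lower mean, but lost the call with the GC batch as a covariate (adjusted p = 0.143). P-SSC 1 and 2+5 alone were 1.84 above BM-MSCs (adjusted p = 0.0431), while all 3 P-SSC libraries were 1.49 above them (adjusted p = 0.0757).

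Insig1, which encodes a sterol sensor that retains SREBPs in the endoplasmic reticulum and is itself an SREBP target, ran differently. Its value was 1204, 0, 627 and 1982 in graft BM-MSC 1 to 4, 82.5, 21.1 and 69.0 in BM-MSC 1, 2+4 and 3, and 90.4, 59.9 and 539.9 in P-SSC 1, 2+5 and 4. It was high in 3 graft libraries and in P-SSC 4, all of the high GC batch, and listed at 0 in graft BM-MSC 2, which is of that batch too. No change was called, with a log2 change of 1.96 (SE 2.29, adjusted p = 0.616) against BM-MSCs. Without graft BM-MSC 2 the log2 change was 4.50 (adjusted p = 0.0238, where 7.63% of all genes were called), and DESeq2 also called it (4.03, adjusted p = 0.0356), while with the GC batch as a covariate the log2 change was -0.90 (adjusted p = 0.967).

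The 8 enzymes of sterol synthesis were all lower on average log2 value in graft BM-MSCs than in P-SSCs, with 2 called (12.0% of all genes were called as lower). The median log2 change of the 8 was -3.78 against P-SSCs and -2.17 against BM-MSCs, and P-SSCs were 1.32 above BM-MSCs. Zeros in graft libraries enter these medians. The graft sum of the 8 was 4.17-fold lower than in P-SSCs and 1.95-fold lower than in BM-MSCs. With DESeq2 the changes against P-SSCs ran from -3.44 (Lss) to 1.23 (Fdps). Fdps had a higher mean in the graft than in P-SSCs (35.1 against 15.1), led by graft BM-MSC 2. Idi1 and Fdps had higher means in the graft than in BM-MSCs. Of the windows of 250 bases before a gene start in RefSeq (GRCm38.p6), 25 of the 32 genes matched. All 5 matched sterol enzymes and all 3 regulators had both CCAAT, the letters bound by NF-Y, and GGGCGG, the letters bound by Sp1, on either strand within the windows of the gene, which 12.5% of all 27025 genes had. Both were held by 0 of 5 matched genes of fatty acid synthesis, 0 of 5 of storage, lipolysis and efflux, and 1 of 7 of β-oxidation. The sterol regulatory element was searched as TCACNCCAC on both strands, and 1 lipid gene, Hmgcs1, held it, beside 1.22% of all genes. A match is a description of letters and not a binding site. Part or all of several windows lies in annotated exons, and that of Idi1 lies wholly in them. The windows of Hmgcs1, the only holder of the sterol element, and of Lss, the gene with the largest log2 change, are shown 5′ to 3′ with all matches in capitals, read on the plus strand at chr13:119690101-119690350 and chr10:76531355-76531604.
Hmgcs1: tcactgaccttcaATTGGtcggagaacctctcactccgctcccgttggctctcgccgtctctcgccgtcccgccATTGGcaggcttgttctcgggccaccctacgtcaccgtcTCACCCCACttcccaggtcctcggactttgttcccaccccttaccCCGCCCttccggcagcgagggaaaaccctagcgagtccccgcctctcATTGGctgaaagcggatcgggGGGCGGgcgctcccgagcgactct
Lss: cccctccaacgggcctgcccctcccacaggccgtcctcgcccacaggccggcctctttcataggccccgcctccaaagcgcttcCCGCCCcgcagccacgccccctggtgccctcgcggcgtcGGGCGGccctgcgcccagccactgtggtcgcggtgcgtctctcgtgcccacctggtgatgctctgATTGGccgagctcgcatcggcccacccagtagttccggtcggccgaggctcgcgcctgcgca
The Hmgcs1 window has 3 CCAAT and 2 GGGCGG matches around the sterol element, and the Lss window has 1 and 2.

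Dhcr7 encodes the reductase of the last step to cholesterol. Its value was 191, 11.8, 80.6 and 6.90 in graft BM-MSC 1 to 4, 555, 702 and 715 in BM-MSC 1, 2+4 and 3, and 762, 417 and 382 in P-SSC 1, 2+5 and 4. All 4 graft libraries were below all 6 steady-state libraries. Dhcr7 fell by 4.20 on the log2 scale against BM-MSCs (SE 1.04, adjusted p = 0.0368) and fell by 3.81 against P-SSCs (SE 1.04, adjusted p = 0.0288), and P-SSCs and BM-MSCs overlapped. It was the only lipid gene called against BM-MSCs. This call was lost under 13 of 23 alternatives, among them edgeR and the omission of any single BM-MSC library, of graft BM-MSC 2 or 4 or of P-SSC 1 or 2+5, and the call against P-SSCs under 12.

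Lss encodes lanosterol synthase, which closes the first sterol ring system. Its value was 0, 127, 0 and 0 in graft BM-MSC 1 to 4, 253, 121 and 217 in BM-MSC 1, 2+4 and 3, and 449, 459 and 133 in P-SSC 1, 2+5 and 4. It was listed at 0 in 3 graft libraries, and graft BM-MSC 2 was above BM-MSC 2+4. Lss fell by 6.49 on the log2 scale against P-SSCs (SE 1.74, adjusted p = 0.0268), and its log2 change against BM-MSCs was -5.81 (SE 1.74, adjusted p = 0.0720). The size of these changes rests on the zeros and on the pseudocount, and the call against P-SSCs was lost under 12 of 23 alternatives, including edgeR and DESeq2. An antisense gene overlaps Lss, and no source used here gives the strand setting of the counting.

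The other 6 sterol enzymes were not called when all libraries were fitted. Sqle encodes squalene epoxidase, a rate-limiting step. Its value was 164, 283, 239 and 0 in graft BM-MSC 1 to 4, 321, 245 and 273 in BM-MSC 1, 2+4 and 3, and 1267, 1459.8 and 573 in P-SSC 1, 2+5 and 4. Each P-SSC library was above each marrow library. The log2 change against P-SSCs was -4.14 (SE 1.69, adjusted p = 0.118) and -2.70 with DESeq2 (adjusted p = 0.0753). Without graft BM-MSC 4, the library at 0, it was -2.19 (adjusted p = 0.0129, where 2447 of all 13644 genes were called). Fdft1 encodes squalene synthase. Its value was 237, 0, 363 and 518 in graft BM-MSC 1 to 4, 401, 329 and 309 in BM-MSC 1, 2+4 and 3, and 1469, 1649.6 and 558 in P-SSC 1, 2+5 and 4. It had the same order, with a log2 change against P-SSCs of -3.76 (SE 1.82, adjusted p = 0.181) and of -2.17 with DESeq2 (adjusted p = 0.195). Without graft BM-MSC 2, the library at 0, the change was -1.64 (adjusted p = 0.0454, where 18.9% of all genes were called). A processed pseudogene shares 33.8% of the Fdft1 transcript at 97% identity or more.

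Cyp51, the lanosterol demethylase, held no reads in graft BM-MSC 2 and 3 and reached 323 in graft BM-MSC 1 and 528 in graft BM-MSC 4, beside 216 to 393 in BM-MSCs and 518 to 959.8 in P-SSCs. Its graft values were thus either 0 or at the level of the steady-state libraries. The log2 change against P-SSCs was -5.10 (SE 2.16, adjusted p = 0.129). Only the fit without graft BM-MSC 4, the library with its highest graft value, called Cyp51 (-6.66, adjusted p = 0.0482). The log2 change was -3.65 without graft BM-MSC 2 (adjusted p = 0.225) and -1.79 with DESeq2 (adjusted p = 0.513). Hmgcs1, the synthase that makes HMG-CoA, ranged from 6.04 to 627 in graft BM-MSCs, from 191 to 528 in BM-MSCs and from 341 to 1065 in P-SSCs, and all 3 groups overlapped. Idi1, the isomerase of isopentenyl diphosphate, ranged from 0 to 186 in graft BM-MSCs, from 0 to 43.4 in BM-MSCs and from 76.6 to 251 in P-SSCs. Fdps, the farnesyl diphosphate synthase, was at most 22.9 in all libraries but graft BM-MSC 2 (137). It has 4 pseudogene copies and an overlapping gene on the same strand, and its low value is uncertain.

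Fatty acid synthesis was the role whose summed value had the largest ratio between P-SSCs and both marrow groups. This sum averaged 21862 in P-SSCs and was led by Acly and Scd2, with means of 8579 and 6361. All 7 genes had a negative log2 change in graft BM-MSCs against P-SSCs by limma, with a median of -3.82 and 2 called (12.0% of all genes were called as lower). With DESeq2 these changes were smaller, from -3.51 (Acly) to 0.18 (Elovl6). Acaca and Elovl6 had slightly higher means in the graft than in P-SSCs (187 against 177 and 201 against 177). Their log2 changes were positive with edgeR and DESeq2. In P-SSCs against BM-MSCs all 7 had a positive log2 change by limma, with a median of 1.60 and 0 called (4.57% of all genes were called as higher). Acly (chr11:100476353-100528000, minus strand) encodes ATP citrate lyase, which makes the cytosolic acetyl-CoA for both routes. Its value was 1104, 378, 48.3 and 1539 in graft BM-MSC 1 to 4, 2480.3, 2066 and 2185 in BM-MSC 1, 2+4 and 3, and 10398, 7486 and 7854 in P-SSC 1, 2+5 and 4. The 3 groups did not overlap, and the lowest P-SSC library was 3-fold above the highest BM-MSC library. Acly fell by 4.33 on the log2 scale against P-SSCs (SE 0.95, adjusted p = 0.0095), an 11.2-fold lower mean, and kept this call under 20 of 23 alternatives. Acly lost it with the GC batch as a covariate (log2 change -4.22), with the replicate block (-3.40) and when only both groups were fitted (-4.33, adjusted p = 0.0552). Its log2 change was -2.41 against BM-MSCs (SE 0.95, adjusted p = 0.145), and P-SSCs were 1.92 above BM-MSCs (SE 1.01, adjusted p = 0.380 in the shared fit and 0.0017 with the steady-state libraries alone).

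Fasn (chr11:120805846-120824547, minus strand) encodes fatty acid synthase. Its value was 289.8, 2.53, 816 and 121 in graft BM-MSC 1 to 4, 837, 853 and 953 in BM-MSC 1, 2+4 and 3, and 3541, 2692 and 1986 in P-SSC 1, 2+5 and 4. The 3 groups did not overlap, while graft BM-MSC 3 came close to the BM-MSCs. Fasn fell by 4.73 on the log2 scale against P-SSCs (SE 1.44, adjusted p = 0.0455), and the call was lost under 15 of 23 alternatives. Its log2 change against BM-MSCs was -3.13 (SE 1.44, adjusted p = 0.204). The windows before Acly and Fasn lie outside all annotated exons and differ in their boxes, and they are shown 5′ to 3′ on the minus strand, at chr11:100528001-100528250 and chr11:120824548-120824797, with CCAAT and GGGCGG matches of either strand in capitals.
Acly: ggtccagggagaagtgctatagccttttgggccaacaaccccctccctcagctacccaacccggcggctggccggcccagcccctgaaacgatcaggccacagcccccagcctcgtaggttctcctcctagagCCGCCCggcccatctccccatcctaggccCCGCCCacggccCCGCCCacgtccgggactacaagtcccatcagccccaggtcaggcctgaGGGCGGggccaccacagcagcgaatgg
Fasn: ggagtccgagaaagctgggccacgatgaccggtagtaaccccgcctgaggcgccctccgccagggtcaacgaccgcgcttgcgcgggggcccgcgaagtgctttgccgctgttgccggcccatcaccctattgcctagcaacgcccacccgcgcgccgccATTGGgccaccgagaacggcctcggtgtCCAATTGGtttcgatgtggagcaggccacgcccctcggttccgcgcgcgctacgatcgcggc
The Acly window holds 4 GGGCGG and 0 CCAAT matches and the Fasn window 3 CCAAT, of which a forward and a reverse match overlap, and 0 GGGCGG. Over all genes of the table, 35.4% held GGGCGG and 37.5% held CCAAT.

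The desaturases Scd1 and Scd2 put the double bond into newly made fatty acids. Scd2 was 1252, 0.843, 474 and 759 in graft BM-MSC 1 to 4, 1653, 1376 and 1144 in BM-MSC 1, 2+4 and 3, and 9127, 5359 and 4597 in P-SSC 1, 2+5 and 4. P-SSC libraries were all above the marrow libraries, and graft BM-MSC 2 held 1 read. The log2 change against P-SSCs was -5.16 (SE 1.83, adjusted p = 0.0773), and it was -3.39 with DESeq2 (adjusted p = 0.0111). Without graft BM-MSC 2 it was -2.99 (adjusted p = 0.000937, where 18.9% of all genes were called). Scd1 was 70.6, 4.22, 1013 and 2195 in graft BM-MSC 1 to 4, 807, 736 and 1082 in BM-MSC 1, 2+4 and 3, and 3763, 2479 and 1488 in P-SSC 1, 2+5 and 4. Here graft BM-MSC 4 was within the range of P-SSCs, and the log2 change of -3.82 (SE 1.67, adjusted p = 0.140) missed the threshold.

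The elongases and acetyl-CoA carboxylase were not called when all libraries were fitted. Elovl5, which extends polyunsaturated fatty acids, was 684, 0, 712 and 696 in graft BM-MSC 1 to 4, 306, 194 and 488 in BM-MSC 1, 2+4 and 3, and 1300.5, 1129 and 1324 in P-SSC 1, 2+5 and 4. Apart from the zero in graft BM-MSC 2, the graft libraries lay between both steady-state groups. Its log2 change against P-SSCs was -3.20 (SE 1.99, adjusted p = 0.294), and P-SSCs were 2.02 above BM-MSCs (SE 2.12, adjusted p = 0.824 in the shared fit and 0.0151 with the steady-state libraries alone). Elovl6, which extends palmitate, ranged from 0 to 391 in graft BM-MSCs, from 56.9 to 158 in BM-MSCs and from 75.2 to 239 in P-SSCs. Acaca, the carboxylase that makes malonyl-CoA, ranged from 12.4 to 317 in graft BM-MSCs, from 85.6 to 299 in BM-MSCs and from 152 to 194 in P-SSCs. The groups overlapped for both genes, and for Acaca a processed pseudogene shares 64.3% of the transcript.

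The genes of triglyceride synthesis and storage had another order of groups. Dgat1 and Dgat2 encode the enzymes of the last step of triglyceride synthesis. Dgat1 was 740.1, 435, 1108 and 1459 in graft BM-MSC 1 to 4, 682, 296 and 284 in BM-MSC 1, 2+4 and 3, and 43.6, 112 and 627 in P-SSC 1, 2+5 and 4. It was the 1 gene of the 32 with its lowest mean in P-SSCs, although P-SSC 4 was above graft BM-MSC 2. Its log2 change against P-SSCs was 2.53 (SE 0.83, adjusted p = 0.0592), and without P-SSC 4 it was 3.58 (adjusted p = 0.0047, where 22.0% of all genes were called). With the GC batch as a covariate it was 0.44 against P-SSCs (adjusted p = 0.818) and -2.01 against BM-MSCs (adjusted p = 0.730). Dgat2 was 864, 0, 294 and 1522 in graft BM-MSC 1 to 4, 252, 105 and 139 in BM-MSC 1, 2+4 and 3, and 65.4, 29.3 and 434 in P-SSC 1, 2+5 and 4. Its graft values spanned the whole range of the series.

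Plin2, which coats lipid droplets in most cells, was 1812, 2165, 1846 and 5208 in graft BM-MSC 1 to 4, 1804, 2235 and 1879 in BM-MSC 1, 2+4 and 3, and 3345, 4030.4 and 1929 in P-SSC 1, 2+5 and 4. Graft BM-MSC 4 had the highest value of all libraries and the other 3 graft libraries were within the range of BM-MSCs. Graft BM-MSC 4 also had the highest values of Dgat1, Dgat2 and Insig1. The summed value of the adipocyte markers in that library was 7981, where it was 1384, 1706 and 7615 in graft BM-MSC 1 to 3, 387 to 1021 in BM-MSCs and 90.4 to 205 in P-SSCs. Of the defining adipocyte genes, Plin1 was 924 and Cidec 291 in graft BM-MSC 4. Both were listed at 0 in all 6 steady-state libraries and in graft BM-MSC 2. The sum in graft BM-MSC 4 was mostly Fabp4 (4246) and Cfd (2370), and Cfd was higher in graft BM-MSC 3 (5366). Other markers went the other way. Adrb3 was 150 in graft BM-MSC 4, below the 161 to 212 of the BM-MSC libraries, and Retn had no reads there. Lep is not among the genes analysed. The part of adipocyte RNA in the lipid gene values was not tested.

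Of the 3 lipolysis genes, limma and edgeR called 0 in the graft against either group. DESeq2 called Mgll against P-SSCs (log2 change -3.40, adjusted p = 0.0135, where 21.3% of all genes were called). In limma all 3 had an unadjusted p under 0.05 against P-SSCs, as did 32.8% of all genes. Pnpla2, Lipe and Mgll encode the lipases that take fatty acids from triglyceride, diglyceride and monoglyceride in turn. Mgll was 319, 171, 0 and 541 in graft BM-MSC 1 to 4, 552, 568 and 498 in BM-MSC 1, 2+4 and 3, and 2422, 3070.0 and 2505 in P-SSC 1, 2+5 and 4. P-SSCs were at least 4-fold above every other library. The log2 change against P-SSCs was -5.16 (SE 1.76, adjusted p = 0.0672). Without graft BM-MSC 3, the library at 0, it was -3.10 (adjusted p = 0.0012, where 2377 of all 13644 genes were called). Lipe was 24.9, 83.5, 0 and 28.5 in graft BM-MSC 1 to 4, 193, 117 and 216 in BM-MSC 1, 2+4 and 3, and 250.3, 210.2 and 102 in P-SSC 1, 2+5 and 4. All graft values were below all steady-state values, with log2 changes of -3.47 against P-SSCs (SE 1.41, adjusted p = 0.117) and -3.42 against BM-MSCs (SE 1.41, adjusted p = 0.163). Pnpla2 ranged from 579 to 1034 in graft BM-MSCs, from 897 to 1854 in BM-MSCs and from 829.8 to 2073 in P-SSCs. Its log2 change of -0.97 against P-SSCs missed the threshold (adjusted p = 0.128). Without P-SSC 4 it was -1.34 (adjusted p = 0.0359, where 22.0% of all genes were called). Antisense genes overlap Mgll and Lipe.

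Abca1 encodes the transporter that exports cholesterol from the cell and is a target of the LXR receptors. Its value was 219, 129.9, 257 and 97.5 in graft BM-MSC 1 to 4, 439, 432 and 818 in BM-MSC 1, 2+4 and 3, and 1510.3, 382 and 1232 in P-SSC 1, 2+5 and 4. All graft libraries were below all steady-state libraries, which overlapped. Abca1 fell by 2.44 on the log2 scale against P-SSCs (SE 0.59, adjusted p = 0.0161), a 5.93-fold lower mean, and the log2 change of -1.71 against BM-MSCs missed the threshold (SE 0.59, adjusted p = 0.108). The call against P-SSCs was kept under 17 of 23 alternatives and lost, among others, without P-SSC 1, with the GC batch as a covariate, where the log2 change was -2.91 (adjusted p = 0.0844), and after loess, where it was -1.63 (adjusted p = 0.0903).

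β-oxidation genes differed by less than the synthetic enzymes. Against P-SSCs 4 of the 7 genes were called as lower in the graft, Acadvl, Hadha, Hadhb and Cpt1a, where 12.0% of all genes were. The median log2 change of the 7 was -1.04. Acadvl, the dehydrogenase for very long chains, was 1282, 1419, 1586 and 931 in graft BM-MSC 1 to 4, 2291, 2796 and 1749 in BM-MSC 1, 2+4 and 3, and 3627, 4936 and 3148 in P-SSC 1, 2+5 and 4. The 3 groups did not overlap. Acadvl fell by 1.58 on the log2 scale against P-SSCs (SE 0.28, adjusted p = 0.0028), a 2.99-fold lower mean, and its log2 change against BM-MSCs was -0.80 (SE 0.28, adjusted p = 0.109).

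Hadha and Hadhb encode the α and β subunits of the mitochondrial trifunctional protein, which carries out the last 3 steps of each cycle on long chains. The genes lie head to head on chromosome 5, Hadha at chr5:30118304-30155162 on the minus strand and Hadhb at chr5:30155248-30184593 on the plus strand, with 85 bases between their starts in GENCODE M21. That stretch, chr5:30155163-30155247 on the plus strand (GRCm38), is shown because both genes start from it, with GGGCGG in capitals.
Hadha-Hadhb: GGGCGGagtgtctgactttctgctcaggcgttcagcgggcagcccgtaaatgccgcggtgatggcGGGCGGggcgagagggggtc
It holds 2 GGGCGG matches, 0 CCAAT and 0 sterol elements. Hadha was 983, 1062, 1234 and 779 in graft BM-MSC 1 to 4, 1885, 1991 and 1641 in BM-MSC 1, 2+4 and 3, and 2275, 3551 and 1671 in P-SSC 1, 2+5 and 4. Hadhb was 1257, 1566, 1222 and 1384 in graft BM-MSC 1 to 4, 2219, 2606 and 2169 in BM-MSC 1, 2+4 and 3, and 3001, 3163 and 2237 in P-SSC 1, 2+5 and 4. For both genes all graft libraries were below all steady-state libraries, which overlapped. Hadha fell by 1.25 (SE 0.30, adjusted p = 0.0154) and Hadhb by 1.04 (SE 0.22, adjusted p = 0.0091) on the log2 scale against P-SSCs. Against BM-MSCs the log2 changes were -0.87 (SE 0.30, adjusted p = 0.107) and -0.78 (SE 0.22, adjusted p = 0.0620), and both were called when only these 2 groups were fitted (adjusted p = 0.0342 and 0.0193, where 10.9% of all genes were called). Acadvl, Hadha and Hadhb lost their calls against P-SSCs with the GC batch as a covariate and after the loess correction. Repeats or copies shared with other genes cover 9.28% of the Hadhb transcript, and Acadvl and Hadha overlap neighbours on the opposite strand.

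Cpt1a, the carnitine transferase that lets long chains into mitochondria, was 656, 702, 2101 and 919 in graft BM-MSC 1 to 4, 1040.2, 1498 and 1669.8 in BM-MSC 1, 2+4 and 3, and 2541, 2517 and 2077 in P-SSC 1, 2+5 and 4. Graft BM-MSC 3 was above P-SSC 4, so the groups overlapped. Cpt1a fell by 1.28 on the log2 scale against P-SSCs (SE 0.40), with an adjusted p just under the threshold that was lost under 20 of 23 alternatives. Acadm, the medium-chain dehydrogenase, ranged from 442 to 1399 in graft BM-MSCs, from 1597 to 2395 in BM-MSCs and from 1237 to 1898 in P-SSCs. It did not overlap between graft BM-MSCs and BM-MSCs, with a log2 change of -1.12 (SE 0.39, adjusted p = 0.113). Cpt2, the inner-membrane partner of Cpt1a, had nearly level values from 1151 to 1354 in graft BM-MSCs, from 865 to 1407 in BM-MSCs and from 1068 to 1838 in P-SSCs. Its log2 change was -0.10 against P-SSCs (SE 0.29) and 0.12 against BM-MSCs (SE 0.29).

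Acadl, the long-chain dehydrogenase, was 1848, 300.2, 1544 and 2194 in graft BM-MSC 1 to 4, 905, 715 and 857 in BM-MSC 1, 2+4 and 3, and 394, 338 and 2033 in P-SSC 1, 2+5 and 4. It was high in 3 graft libraries and in P-SSC 4. Skeletal muscle markers, from a tissue rich in β-oxidation, summed to between 281 and 1340 in P-SSCs, 28.2 and 127 in BM-MSCs and 0 and 248 in graft BM-MSCs, and the endothelial sum was 3269 to 6871 in P-SSCs, nearly all of it Tek, and 0 in graft BM-MSCs. Emcn was listed at 0 in all P-SSC libraries, and Pecam1 and Kdr are not among the genes analysed. The part of these cells in the P-SSC values was not tested.

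P-SSC 4 shared the GC batch with the graft and stood apart for 4 of the 32 genes. Insig1, Dgat1, Dgat2 and Acadl were over 2 higher on the log2 scale in P-SSC 4 than the mean of the other P-SSC libraries (2.86, 3.14, 3.28 and 2.48), as were 19.6% of all genes tested. In 22 of the 32 genes P-SSC 4 was below both other P-SSC libraries, beside 36.3% of all genes, and the median difference was -0.54. Against P-SSC 4 alone, the graft mean on the log2 scale was lower for 29 of the 32 genes, with a median of -1.64 over the 32. The median of all genes tested was -0.61 here, and their share that was lower was not counted. All 11 genes called against P-SSCs were among the 29. P-SSC 4 was part of the fit that called them, so this is no separate support for the calls. The fit with the GC batch as a covariate makes this comparison with its error, on the assumption that the lone P-SSC 4 varies like the other libraries, and called Srebf1 alone of the 32.

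**Figure D5:**
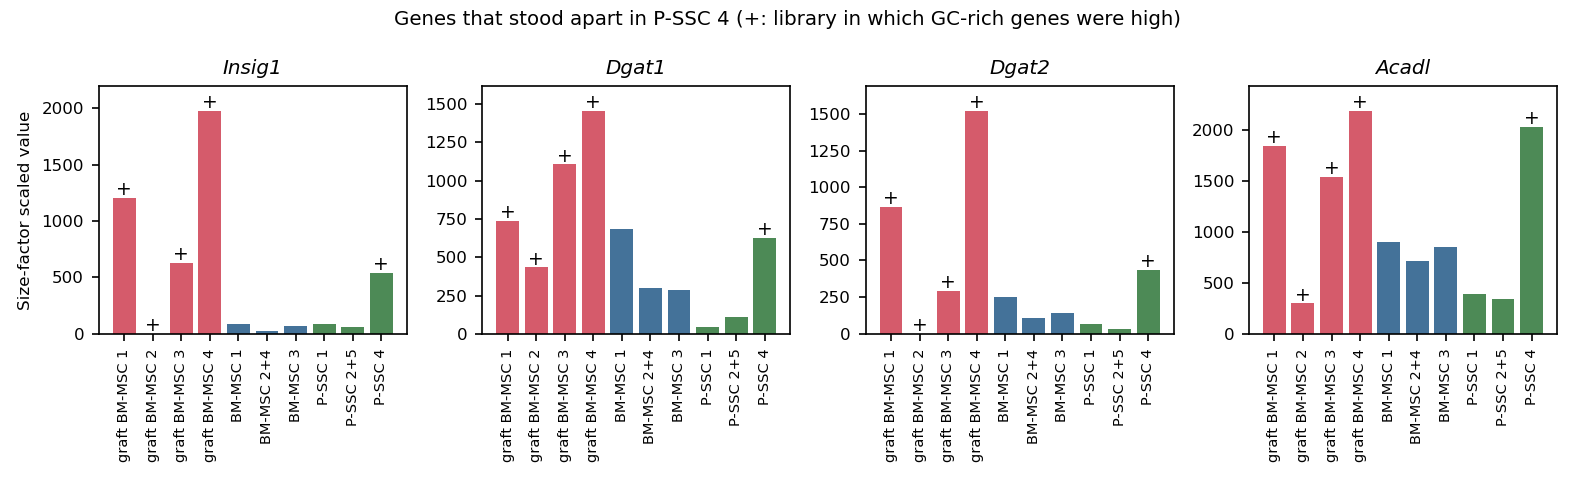
Size-factor scaled values of Insig1, Dgat1, Dgat2 and Acadl in each library, coloured by group (red, graft BM-MSC; blue, BM-MSC; green, P-SSC), with + above the 5 libraries in which GC-rich genes were high. P-SSC 4 was above P-SSC 1 and 2+5 for all 4 genes, and graft BM-MSC 2 was at 0 for Insig1 and Dgat2.

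The leading genes differed between groups when levels were compared per kilobase of exon. In P-SSCs the highest mean was that of Acly, at 1625 per kb, followed by Acadvl at 1453, Scd2 at 1164 and Plin2 at 883. In BM-MSCs it was Acadvl at 848, followed by Plin2 at 562, Cpt2 at 494 and Acadm at 492. In graft BM-MSCs it was Plin2 at 785, then Acadl at 734, Cpt2 at 528 and Acadvl at 486. Acly and Scd2 were among the first 4 in P-SSCs only and Cpt2 in both marrow groups only. The order within a group was not tested, and in the graft Plin2 was led by graft BM-MSC 4.

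Other genes of the same pathways were taken from a list of 91, of which 85 were in the table and 82 were tested. In graft BM-MSCs against P-SSCs, 11 rose and 11 fell, or 26.8% of the 82 where 18.1% of all genes were called (6.08% as higher and 12.0% as lower), with a median log2 change of -0.51. Of the 14 further sterol genes, 0 were called in each of the 3 comparisons by limma, edgeR and DESeq2, with 2 at an unadjusted p under 0.05 against P-SSCs, 2 against BM-MSCs and 1 between the steady-state groups. Their median log2 change against P-SSCs was -1.88, close to that of the 32 genes of all roles but less negative than that of the sterol enzymes among them.

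The 11 that rose differed in role. Genes higher in graft BM-MSCs than in P-SSCs included Lpl, Fabp4 and Fabp5, which take up and carry fatty acids, Agpat2 and G0s2 of triglyceride storage, Soat1, which esterifies cholesterol, and Apoe. Apoe, the apolipoprotein of lipid export, was 53586, 77386, 86911 and 70484 in graft BM-MSC 1 to 4, 74739.5 at most in BM-MSCs and 1119.7, 1084 and 6417 in P-SSC 1, 2+5 and 4. Marrow libraries of either kind were thus all far above periosteal ones, and Apoe rose by 5.16 on the log2 scale against P-SSCs (SE 0.55, adjusted p = 1.4e-04). Pparg, the main regulator of the adipocyte lineage, was 2865, 889.7, 1741 and 3268 in graft BM-MSC 1 to 4 and at most 80.0 in P-SSCs, a rise of 5.44 (SE 0.58, adjusted p = 1.4e-04). Elovl4, an elongase of very long chains, ranged from 114 to 801 in graft BM-MSCs and was 0, 0 and 34.9 in P-SSC 1, 2+5 and 4. It rose by 6.60 on the log2 scale (SE 1.33, adjusted p = 0.0060), a size that rests on the zeros.

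Among the 11 that fell, Cyp27a1, the sterol 27-hydroxylase, and Acacb, the mitochondrial acetyl-CoA carboxylase, were listed at 0 in all 4 graft libraries. Cyp27a1 was 1582, 2479 and 881 in P-SSC 1, 2+5 and 4. Its P-SSC mean of 1647 was at least 670.0-fold above the mean graft value of 3 reads per library. Acacb was 51.9, 288 and 57.2 in the same libraries, and its P-SSC mean of 132 was at least 53.8-fold above that graft value. Lpin3, a phosphatidate phosphatase, was 238, 0, 2.01 and 0 in graft BM-MSC 1 to 4 and 897 to 1475 in P-SSCs, with a log2 change of -7.84 (SE 2.14, adjusted p = 0.0287).

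Against BM-MSCs, 4 of the 82 (4.88%) were called in the graft, less than the 7.67% of all genes. Agpat2, an acyltransferase of triglyceride synthesis, rose. It was 1433, 763, 1293 and 1568 in graft BM-MSC 1 to 4 and 277, 341 and 169.6 in BM-MSC 1, 2+4 and 3 (log2 change 2.27, SE 0.50, adjusted p = 0.0242). Acads, the short-chain dehydrogenase of β-oxidation, was 118, 156, 288 and 399.6 in graft BM-MSC 1 to 4 and 1009 to 1359 in BM-MSCs, and fell by 2.46 (SE 0.50, adjusted p = 0.0172). Nr1h2, which encodes the receptor LXRβ that controls Abca1, ranged from 1339 to 2151 in graft BM-MSCs and from 2712 to 4315 in BM-MSCs and fell by 1.04 (SE 0.25, adjusted p = 0.0324). Ppard held at most 1 read in each graft library and 12.5 to 81.9 in BM-MSCs. Its BM-MSC mean of 36.0 was at least 14.7-fold above the mean graft value of 3 reads per library. Between the steady-state groups, 13 of the 82 (15.9%) were called where 9.15% of all genes were, with Cyp27a1, Acacb, Plin3 and Acaa2 higher in P-SSCs and Insig2, Soat1, Apoe, Scarb1, Elovl4, Fads3, Lpl, G0s2 and Pparg higher in BM-MSCs. Soat1 was 3718, 1669 and 2877 in BM-MSC 1, 2+4 and 3 and 270.1, 191 and 220.0 in P-SSC 1, 2+5 and 4 (log2 change -3.53, SE 0.39, adjusted p = 2.6e-04).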

How the data were processed

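RNA had been extracted from sorted cells and polyadenylated RNA sequenced in 10 libraries. The values deposited by the authors are a scaled signal, that is, read counts per gene over the size factor of the library. The paper's methods give alignment to GRCm38 with STAR and testing with DESeq2. The submitters' processing notes name GRCm39, FastQC 0.11.5, cutadapt 1.15, STAR 2.5, featureCounts (Subread 1.4.6) and DESeq2 1.26.0. The annotation release and strand setting are not given in the sources used here. Gene coordinates, GC content and exon lengths came from GENCODE M21 (GRCm38) by Ensembl ID (15052 of 15078 found) and were not needed to read the values. Promoter windows came from RefSeq (GRCm38.p6) by symbol.

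Columns were matched to libraries by their names, and 0 columns were left unused. Values were whole multiples of the value of 1 read within 0.01 of a read for 100% of entries, and reads were recovered from them. Log2(value + 1) was fitted with limma 3.58.1 (R 4.3.3), 1 mean per group over all 10 libraries, 7 residual degrees of freedom and a variance trend, for 13644 genes with a mean of at least 10 (1434 removed), two-sided, with Benjamini-Hochberg adjustment over all genes tested and a threshold of 0.05. The method was tested on simulated data. Alternatives were other pseudocounts, filters and scalings, edgeR 4.0.16 and DESeq2 1.42.0 on the recovered reads, pairwise fits, a threshold of 0.01, omission of each library, a replicate block, the GC batch as a covariate and a loess correction for GC content (span 0.3). Near-identical copies were searched by alignment of transcripts (at least 75 bases at 97% identity). The genes named were the 32 genes and, of the other lipid genes, at most the 6 with the largest absolute log2 change per comparison among those called without overlap, with further called genes by name only. The 32 genes, the other lists and the tests were chosen with earlier results of these data known. Floors of 3 reads cover counting error only.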

Additional observations from a re-analysis of the deposited data

Results flagged for a closer look

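In the group of 4 graft BM-MSC libraries, 9 of the 32 lipid genes had a library far from the others by Dixon's 95% critical value. About 1 in 20 independent groups of normally spread values would pass it by chance. The 32 genes share the same 4 libraries, which listed between 22.6% and 38.3% of the table at 0. The share of all genes that pass was not counted, so the 9 cannot be read as particular to lipid genes. The measure is the gap of the highest or lowest library to its nearest neighbour, divided by the range of the group. Graft BM-MSC 2 stood apart for 5 genes. It was listed at 0 for Insig1 (gap 0.849 of the range), Fdft1 (0.876) and Elovl5 (0.994), held 1 read of Scd2 (0.851), and was the 1 graft library with Lss (1.0). Graft BM-MSC 4 was listed at 0 for Sqle (0.904) and had the highest Plin2 (0.832), graft BM-MSC 3 was listed at 0 for Elovl6 (0.857), and graft BM-MSC 1 had the lowest Acaca (0.862). Of these 9 genes, Lss is the only one that was called in a comparison with graft BM-MSCs.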

How the results depend on the processing

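In graft BM-MSCs against P-SSCs, the number of lipid genes called (11) was 7 with edgeR, 5 when only both groups were fitted, 5 at a threshold of 0.01, 1 with the GC batch as a covariate and 3 after the loess correction for GC content, and 6 to 13 when 1 library was left out, with the lowest count without P-SSC 1 and without P-SSC 2+5. Over all genes the count of 2464 was 1531 with edgeR, 1332 at 0.01, 1081 with the GC batch and 1583 to 3005 when 1 library was left out, with 1583 without P-SSC 1. The median log2 change of the lipid genes was -2.30 with a pseudocount of 0.1, -1.48 after quantile normalization, -1.20 with edgeR, -1.31 with DESeq2, -1.11 after loess and -2.25 to -1.67 when 1 library was left out.

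In graft BM-MSCs against BM-MSCs, the lipid genes called (1) were 2 at a mean of at least 100, 0 with edgeR, 4 with DESeq2, 2 with only both groups, and 0 at 0.01, with the GC batch and after loess. When 1 library was left out they were 0 to 3, with 0 without graft BM-MSC 4, any BM-MSC library, P-SSC 1 or P-SSC 2+5, and 3 without graft BM-MSC 2 or P-SSC 4. Over all genes the 1046 calls were 316 with edgeR, 1947 with DESeq2, 305 at 0.01, 40 with the GC batch and 476 to 1584 when 1 library was left out (540, 476 and 477 without BM-MSC 1, 2+4 and 3, and 1584 without P-SSC 4). The median was -0.54 with edgeR, -0.54 with DESeq2 and -0.19 after loess. In P-SSCs against BM-MSCs, the lipid genes called (0) were 1 with a pseudocount of 0.1, 1 at a mean of at least 100, 2 with DESeq2, 8 with only both groups, 2 with the GC batch, and 0 to 4 when 1 library was left out, with 4 without graft BM-MSC 2. Over all genes the 1248 calls were 619 with edgeR and 794 at 0.01, and the median was 0.57 after quantile normalization. The causes were not tested.

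Scaling moved the share of higher genes among all genes called, from 33.7% to 50.1% after quantile normalization and 61.4% after loess against P-SSCs, and from 34.0% to 57.5% and 71.4% against BM-MSCs. With DESeq2, which changes the test as well, it was 47.1% against BM-MSCs.

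Libraries of different groups with an identical replicate label had correlations of their deviations between -0.0191 and 0.0295. Labels that share 1 number of a joined pair were not counted as identical. Their correlations ran from -0.0670 (BM-MSC 2+4 with P-SSC 4) to 0.0811 (BM-MSC 2+4 with P-SSC 2+5). The labels do not say whether libraries that share a number came from the same mice. A replicate block, which used identical labels only, left 0 lipid genes called in each comparison and 269, 3 and 54 of all genes. The medians with this block were -1.42 against P-SSCs and 0.37 between the steady-state groups.

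Every call kept its direction under the 23 alternatives or was lost, and the medians kept theirs. Among single genes, 103 of 2202 values took the other sign, for 38 pairs of a gene and a comparison, none of which was called by limma over all libraries or under the alternative concerned. These log2 changes, of the other sign than in the report, were as follows. Against P-SSCs, for the graft, a pseudocount of 0.1 gave Insig1 -0.37 and Dgat2 -0.26. Quantile normalization gave Fdps 1.33, Plin2 0.11 and Cpt2 0.092. The edgeR fit gave Fdps 1.30, Acaca 0.16 and Elovl6 0.27. DESeq2 gave Fdps 1.23, Acaca 0.066 and Elovl6 0.18. A replicate block gave Plin2 0.19 and Cpt2 0.20. The GC batch gave Insig1 -1.46, Dgat2 -1.63, Plin2 0.36, Cpt2 0.24 and Acadl -0.79. The loess correction gave Acaca 0.24, Plin2 0.69 and Cpt2 0.87. When 1 library was left out there, values ran for Acaca from -1.08 to 0.44, Cpt2 from -0.27 to 0.12, Dgat2 from -0.59 to 2.93, Elovl6 from -2.19 to 0.68 and Insig1 from -0.66 to 2.99. Against BM-MSCs, for the graft, a pseudocount of 0.1 gave Fdps -0.65. A pseudocount of 5 gave Elovl6 0.040 and Dgat2 0.40. Median centring gave Fdps -0.024 and Cpt2 -0.041. Quantile normalization gave Elovl6 0.15 and Dgat2 0.39. The edgeR fit gave Acaca 0.14, Elovl5 0.66, Elovl6 1.04 and Dgat2 2.01. DESeq2 gave Acaca 0.15, Elovl5 0.65, Elovl6 1.05 and Dgat2 2.00. A replicate block gave Idi1 -0.75, Fdps -1.38, Fdft1 0.041, Elovl5 0.87 and Dgat2 1.20. The GC batch gave Srebf2 0.19, Insig1 -0.90, Dgat1 -2.01, Pnpla2 0.39 and Acadl -1.97. The loess correction gave Srebf1 0.19, Acaca 0.52, Elovl6 0.18, Dgat2 0.72, Pnpla2 0.11, Cpt1a 0.39, Acadvl 0.15 and Hadha 0.021. When 1 library was left out there, values ran for Acaca from -0.81 to 0.71, Cpt2 from -0.088 to 0.26, Dgat2 from -1.29 to 2.23, Elovl5 from -1.98 to 1.18, Elovl6 from -1.36 to 1.51, Fdft1 from -2.96 to 0.043, Fdps from -1.37 to 0.99, Idi1 from -1.48 to 1.57 and Plin2 from -0.021 to 0.49. In P-SSCs against BM-MSCs median centring gave Lipe -0.043. Quantile normalization gave Lipe -0.28. The edgeR fit gave Acaca -0.018, Dgat2 0.023, Lipe -0.020 and Acadl 0.087. DESeq2 gave Dgat2 0.080 and Acadl 0.15. A replicate block gave Hmgcs1 -1.21, Cyp51 -1.95, Dhcr7 1.13, Elovl6 -1.26, Lipe -1.74, Mgll -0.83, Cpt2 -0.028 and Acadm 0.078. The loess correction gave Lipe -0.047. When 1 library was left out there, values ran for Acaca from -0.11 to 0.78, Acadl from -1.17 to 0.12, Dgat2 from -1.79 to 0.13, Lipe from -0.22 to 0.43 and Pnpla2 from -0.045 to 0.61. Among these, Insig1 against P-SSCs was -0.18 without P-SSC 2+5, Idi1 in the graft against BM-MSCs was -0.94 without graft BM-MSC 4, and between the steady-state groups Lipe was -0.21 and Acadl 0.012 without P-SSC 1 and Lipe -0.087 without P-SSC 2+5.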
